A study of Rattus norvegicus with 6 samples.

Results

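The 40 genes described here carry the cell cycle from the start of DNA replication through mitosis. They were picked by gene symbol from a list of replication, S phase and mitosis genes, and all 40 were found among the 16770 genes of the count table. By role, 17 belong to replication and entry into S phase and 22 to G2 and mitosis. The remaining gene, Lmnb1, encodes lamin B1 of the nuclear lamina. The libraries came from cells grown out of the proximal aorta of 3-month-old rats. The SHR group is the spontaneously hypertensive rat, an inbred model of high blood pressure, and the WKY group is Wistar Kyoto, its usual normotensive control strain. Each strain had 3 libraries. Replicates 1 and 2 of each strain belonged to batch 1 and replicate 3 of each strain to batch 2. Batch 2 therefore holds a single SHR and a single WKY library. All cultures were explants laid with the luminal side down and fed endothelial medium with serum and growth supplement. The labels do not state which step the batches differ in, nor whether each library came from its own animal. The p-values therefore reflect how far the 6 libraries scatter, which may be technical.

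A dividing cell copies its DNA in S phase and separates the copies in mitosis, and separate sets of genes serve these tasks. Replication genes load and fire the MCM helicase at origins, supply nucleotides and join the new strands, and their transcription is driven mainly by E2F factors from late G1. Mitotic genes condense the chromosomes, build the spindle, check its attachment and trigger anaphase. Their transcription peaks later, through B-MYB and FOXM1 and a promoter element named CHR (cell cycle genes homology region). Adult vascular cells divide rarely in the vessel wall and divide readily in serum-fed culture.

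Total estimated counts were 18588818, 18555969 and 19947286 in SHR replicates 1 to 3, and 18556104, 18520914 and 18462032 in WKY replicates 1 to 3. Levels are given as CPM, the standard depth-scaled count unit, with library sizes scaled by TMM (trimmed mean of M values). All 40 genes passed the filter on low counts and no library had a count of 0 for any of them. The lowest count was 14, for Ccne2 in WKY replicate 3. The 3 counts that a count of 0 would allow correspond to 0.151 to 0.187 CPM. The libraries are labelled endothelial cells, and the markers went against that label, since those of endothelium were close to absent. Of 10 markers in the table, Egfl7 alone was above 1 CPM in every library, and the defining junction gene Cdh5 lay between 0 and 0.105 CPM. The summed level of the 10 was 21.6 to 37.7 CPM in SHR and 16.9 to 26.5 CPM in WKY. Summed fibroblast markers (8 genes) reached 10062 to 13556 CPM in SHR and 5255 to 13437 CPM in WKY, and summed smooth muscle markers (8 genes) 838 to 1860 CPM in SHR and 749 to 8144 CPM in WKY. Col1a1 and Col3a1 made up most of the fibroblast sum in every library. Among the other fibroblast markers, Pdgfra had 261 to 456 CPM in SHR and 171 to 255 CPM in WKY. Dpt had 15.6 to 42.6 CPM in SHR and at most 0.740 CPM in WKY, and Tcf21 at most 0.124 CPM in WKY. The cells are therefore called aortic explant cells below. In bulk RNA, fewer dividing cells and less of these transcripts per cell cannot be told apart.

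The promoters of the members were examined first, because genes of these 2 classes are known to carry different control elements. RefSeq promoter windows of the GRCr8 build, 250 bases before to 50 bases after the annotated start, matched 30 of the 40 members by symbol, 12 of them replication and 17 mitotic. Unmatched were Aurkb, Ccna2, Ccne2, Cdc6, E2f1, Foxm1, Mcm4, Rrm2, Tpx2 and Ube2c. The E2F search used the letters TTTGGCGC, TTTCCCGC, TTTCGCGC and TTTGCCGC, the CHR search TTTGAA and TTCGAA, and the third search CCAAT, each on both strands, with overlapping matches counted separately. E2F letters were found in 6 of 12 replication promoters (50%) and in 1 of 17 mitotic promoters (5.88%), against 2.14% of all 33469 promoters in the table. CHR letters were found in 4 of 12 replication promoters (33.3%) and 12 of 17 mitotic promoters (70.6%), against 19.7% of all promoters. CCAAT was found in 8 of 12 (66.7%) and 13 of 17 (76.5%), against 37.5% of all promoters. The list of further replication genes (36 promoters) had E2F letters in 41.7% and CHR letters in 16.7%. In the list of further mitotic genes (41 promoters) the shares were 2.44% and 80.5%. A match of letters is a description of the window and not evidence of a bound site.

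**Figure D1:**
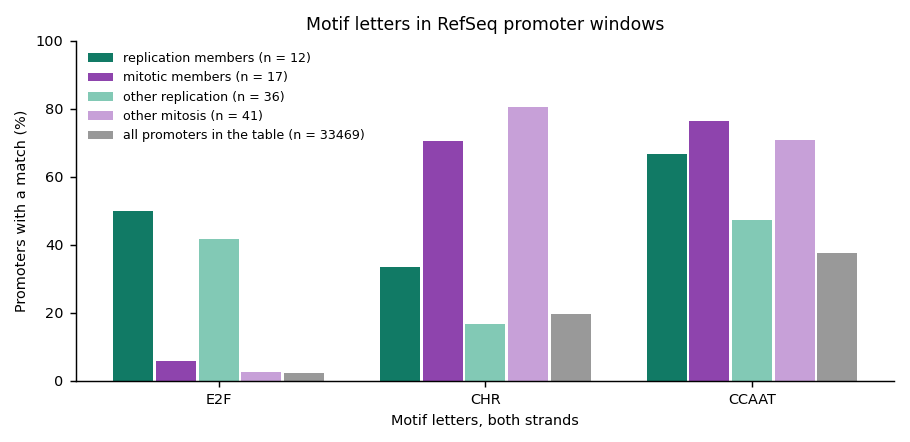
Share of RefSeq promoter windows with E2F, CHR or CCAAT letters (vertical axis, %) in replication members, mitotic members, the lists of further replication and further mitotic genes, and all promoters. E2F letters stand in 50% of replication and 5.88% of mitotic members, and CHR letters in 33.3% and 70.6%.

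Of the 6 replication promoters with E2F letters, 5 belong to genes of the MCM helicase, the ring that unwinds DNA at the fork, and the match nearest the start of each is shown to compare their placement. The lines give 30 bases on the strand of the gene, 5′ to 3′, with the matched letters in capitals. Each of these promoters holds at least 1 further E2F match, which is not marked. In Mcm2 and Mcm6 the only further match overlaps the one shown, beginning 14 and 139 bases before the start, so it is not a separate stretch. The match begins 10 bases before the start in Mcm2, 6 in Mcm3, 8 in Mcm5, 135 in Mcm6 and 52 in Mcm7.
Mcm2, GRCr8 chr4:122918086-122918115, minus strand: acccggttttcGCGCGAAAacccgtggcag
Mcm3, GRCr8 chr9:30733734-30733763, minus strand: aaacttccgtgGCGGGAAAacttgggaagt
Mcm5, GRCr8 chr19:13488794-13488823, plus strand: ccaggttggttTTTCCCGCgaaagtcggct
Mcm6, GRCr8 chr13:42404469-42404498, minus strand: gtctgcttttgGCGCGAAAttagcgtgtgg
Mcm7, GRCr8 chr12:22163212-22163241, minus strand: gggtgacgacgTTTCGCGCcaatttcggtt

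The CHR matches of 4 mitotic members that recur in the results are shown in the same way, with the CHR letters nearest the start in capitals. They begin 43 bases before the start in Ccnb2, 16 in Kif22, 99 in Mki67 and 22 in Top2a. Over the 12 mitotic promoters with CHR letters, the match nearest the start began between 99 bases before it and 29 bases after it.
Ccnb2, GRCr8 chr8:79981684-79981713, minus strand: agcggcgcggtaTTTGAAtcgcggacccag
Kif22, GRCr8 chr1:191080877-191080906, minus strand: ggaccccggcaaTTCAAAagagagaagcgg
Mki67, GRCr8 chr1:199952675-199952704, minus strand: ccgccgttttcgTTTGAAttgggcgggcac
Top2a, GRCr8 chr10:84473098-84473127, minus strand: gctagatgaatgTTCAAAtgaaactaggga

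Whole windows of 300 bases are given for the replication and the mitotic member with the smallest strain p-value (Tyms and Birc5) and with the largest fall in batch 2 (Asf1b and Ccnb1). Capitals mark every E2F, CHR or CCAAT match, and ATTGG is CCAAT on the other strand. Tyms holds a single E2F match, Asf1b a CHR match with 5 CCAAT matches, Birc5 a CHR match 8 bases before the start with 1 CCAAT match, and Ccnb1 2 CCAAT matches.
Tyms, GRCr8 chr9:120776034-120776333, minus strand: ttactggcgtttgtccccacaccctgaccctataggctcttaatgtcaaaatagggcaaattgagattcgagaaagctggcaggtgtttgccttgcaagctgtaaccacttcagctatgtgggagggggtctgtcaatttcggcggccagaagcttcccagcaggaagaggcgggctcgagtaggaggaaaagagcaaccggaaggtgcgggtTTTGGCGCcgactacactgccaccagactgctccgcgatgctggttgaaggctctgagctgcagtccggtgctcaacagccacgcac
Asf1b, GRCr8 chr19:41100303-41100602, minus strand: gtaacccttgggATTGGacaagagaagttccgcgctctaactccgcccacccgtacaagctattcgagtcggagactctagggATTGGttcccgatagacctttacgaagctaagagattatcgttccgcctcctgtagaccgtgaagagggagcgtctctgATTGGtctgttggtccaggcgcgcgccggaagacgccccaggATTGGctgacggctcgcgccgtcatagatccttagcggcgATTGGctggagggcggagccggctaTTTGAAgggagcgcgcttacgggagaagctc
Birc5, GRCr8 chr10:103571896-103572195, plus strand: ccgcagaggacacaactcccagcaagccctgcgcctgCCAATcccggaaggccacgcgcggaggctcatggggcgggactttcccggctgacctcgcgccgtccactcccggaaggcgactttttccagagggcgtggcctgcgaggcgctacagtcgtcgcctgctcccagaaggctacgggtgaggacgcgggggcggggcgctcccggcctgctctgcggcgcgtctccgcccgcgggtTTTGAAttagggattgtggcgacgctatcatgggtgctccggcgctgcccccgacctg
Ccnb1, GRCr8 chr2:33655176-33655475, minus strand: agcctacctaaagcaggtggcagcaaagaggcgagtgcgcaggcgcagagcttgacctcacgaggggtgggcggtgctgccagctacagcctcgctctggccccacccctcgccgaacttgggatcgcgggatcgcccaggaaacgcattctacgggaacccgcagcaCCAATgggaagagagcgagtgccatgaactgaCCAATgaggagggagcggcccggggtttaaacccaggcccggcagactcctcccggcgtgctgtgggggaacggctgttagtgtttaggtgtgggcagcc

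All 40 genes fell in batch 2 relative to batch 1. The 40 genes together took 0.0590% of counts in the batch 2 library of SHR and 0.0452% in that of WKY, against 0.410% and 0.519% in the batch 1 libraries of SHR and 0.397% and 0.357% in those of WKY. In every gene both batch 2 libraries lay below all batch 1 libraries, as they did in 30.4% of the 12614 genes tested. By the edgeR quasi-likelihood test with batch and strain as terms, 40 of 40 were lower at an adjusted p below 0.05, where 22.5% of all genes tested were lower and 21% higher. DESeq2 also called 40 of 40 lower, and 23% of 13995 genes. The median log2 fold change was -2.94 over the replication members and -3.21 over the mitotic members, against -0.0015 over all genes. Of the 40, 20 (7 replication and 13 mitotic) were at least 8-fold lower, as were 1.62% of all genes. The spread among members was wide in both classes, and the ranges of the classes overlapped.

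**Figure D2:**
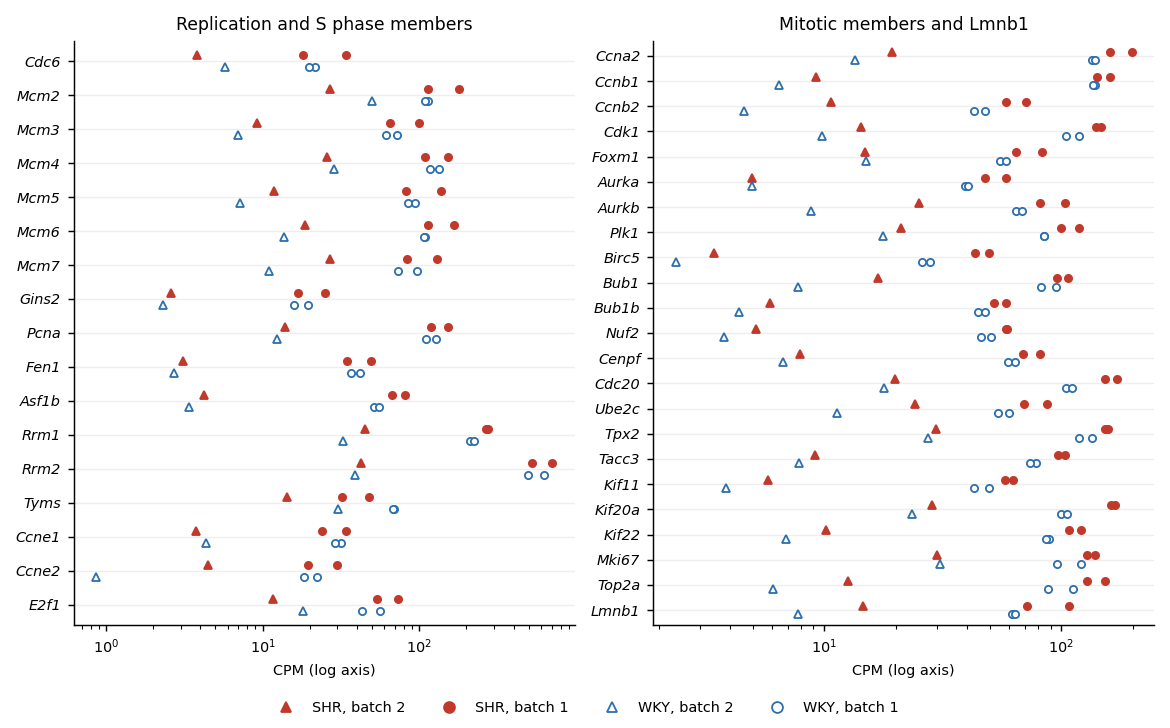
CPM of each member in the 6 libraries on a log axis, replication members at left and mitotic members with Lmnb1 at right, SHR filled and WKY open, batch 2 as triangles and batch 1 as circles. In all 40 genes both triangles lie left of all 4 circles.

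Among mitotic genes the largest fall was that of Ccnb1, cyclin B1, the activator of CDK1 at mitotic entry. It had 9.25 CPM in SHR and 6.47 CPM in WKY of batch 2, against 141 and 160 CPM in SHR and 138 and 135 CPM in WKY of batch 1. The batch 2 libraries were 18.4-fold lower (log2 fold change -4.20, SE 0.19, edgeR adjusted p = 0.000884). Top2a, the topoisomerase that disentangles sister chromatids, had 12.5 CPM in SHR and 6.09 CPM in WKY of batch 2, against 128 and 152 CPM in SHR and 112 and 87.6 CPM in WKY of batch 1, a 13.4-fold fall. Birc5, survivin, a subunit of the chromosomal passenger complex, fell 12.4-fold. The smallest mitotic falls were 3.96-fold for Mki67, the gene of the Ki-67 proliferation antigen, and 3.99-fold for Ube2c, the ubiquitin-conjugating enzyme of the anaphase-promoting complex. Mki67 still had 29.7 CPM in SHR and 30.9 CPM in WKY of batch 2, against 129 and 139 CPM in SHR and 121 and 96.3 CPM in WKY of batch 1. By role, the median log2 fold change was -3.37 for 5 spindle and motor genes, -3.28 for 5 genes of cyclins, CDK1 and FOXM1, -3.26 for 4 checkpoint and kinetochore genes, -2.78 for 4 kinase and passenger genes, and -2.40 for Cdc20 and Ube2c.

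Replication genes fell over a wider range, from 16.5-fold to 2.52-fold. Asf1b, a histone chaperone that works behind the fork, had 4.21 CPM in SHR and 3.42 CPM in WKY of batch 2, against 66.7 and 80.7 CPM in SHR and 51.4 and 55.7 CPM in WKY of batch 1 (log2 fold change -4.05, SE 0.18, edgeR adjusted p = 0.000884). Rrm2, the regulated subunit of ribonucleotide reductase, fell 14.5-fold, with 42.3 CPM in SHR and 38.8 CPM in WKY of batch 2, against 524 and 706 CPM in SHR and 626 and 498 CPM in WKY of batch 1. Fen1, the nuclease that trims Okazaki fragment flaps, fell 13.9-fold. Rrm1, the large subunit of the same reductase as Rrm2, fell 6.33-fold. The smallest falls were those of Tyms, thymidylate synthase, and Mcm2. Tyms had 14.2 CPM in SHR and 30.3 CPM in WKY of batch 2, against 32.2 and 47.9 CPM in SHR and 69.1 and 68.5 CPM in WKY of batch 1 (log2 fold change -1.33, SE 0.21). The 8 licensing and helicase genes had falls from 3.37-fold (Mcm2) to 10.7-fold (Mcm5), so subunits of the same hexamer did not move by the same amount. Transcripts of E2f1, the S phase transcription factor, fell 3.80-fold, and those of the cyclin E genes Ccne1 and Ccne2 7.37-fold and 9.58-fold. Lmnb1 fell 7.03-fold, with 14.6 CPM in SHR and 7.71 CPM in WKY of batch 2, against 71.4 and 107 CPM in SHR and 61.7 and 64.0 CPM in WKY of batch 1.

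**Figure D3:**
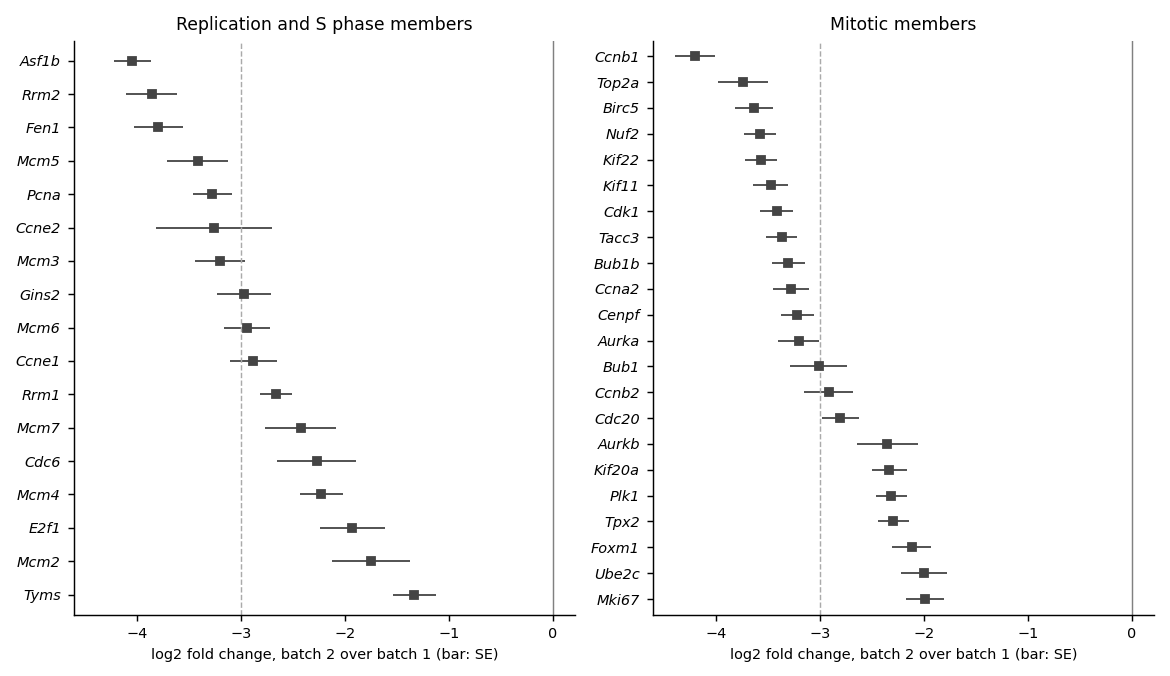
Log2 fold change of batch 2 over batch 1 for each replication member (left) and mitotic member (right), fitted with edgeR over 6 libraries, bars showing the SE. The dashed line marks 8-fold lower (-3), and values run from -4.20 (Ccnb1) to -1.33 (Tyms).

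Genes outside the 40 gave the wider pattern. Of 40 further replication genes, 39 were lower in batch 2 and 0 higher by edgeR (median log2 fold change -2.57), and Pold3, a subunit of DNA polymerase delta, had an adjusted p of 0.0819. Of 46 further mitotic genes in the table, 45 were lower and 0 higher (median -3.04), and Zwint, a kinetochore gene, was at 0.32 (adjusted p = 0.144). Among 24 regulators of G1 and of E2F, 12 were lower and 5 higher. Of all genes tested, 22.5% were lower and 21% higher in batch 2, so the share of higher regulators was close to that of all genes. The lower ones included Mybl2 (-2.80), which encodes B-MYB, and the late repressors E2f7 (-2.78) and E2f8 (-2.52). The 5 higher ones were Lin37 (1.18), a subunit of the MuvB core, the retinoblastoma family genes Rbl2 (0.99) and Rb1 (0.85), the repressive factor E2f4 (0.72) and the cyclin D2 gene Ccnd2 (1.36). Apart from Ccnd2, the genes named here from these further lists were picked after their values were seen. Of 6 CDK inhibitor genes, Cdkn1a (p21), also picked after its values were seen, was higher (0.75, edgeR adjusted p = 0.0444) and Cdkn2c (p18) lower (-1.87, adjusted p = 0.00296). Other cell type markers moved with the batch as well. Of 7 tested smooth muscle markers, 5 were higher and 0 lower in batch 2, with summed levels of 1860 CPM (SHR) and 8144 CPM (WKY) in batch 2, against 838 to 903 CPM in SHR and 749 to 829 CPM in WKY of batch 1. Of 8 fibroblast markers, 3 were higher and 0 lower in batch 2, but their summed level fell in SHR and rose in WKY. It was 10062 CPM (SHR) and 13437 CPM (WKY) in batch 2, against 13556 and 11140 CPM in SHR and 5255 and 8265 CPM in WKY of batch 1. The sum largely followed Col1a1, with 4560 CPM (SHR) and 10880 CPM (WKY) in batch 2. In batch 1 Col1a1 had 8784 and 7517 CPM in SHR and 3846 and 5940 CPM in WKY. In SHR, Lum, Dcn, Pdgfra, Dpt, Tcf21 and Pi16 were each higher in batch 2 than in both batch 1 libraries. In WKY, Dcn was lower, with 8.40 CPM in batch 2 against 61.5 and 26.9 CPM in batch 1. Of 6 tested mesothelial markers, 1 was higher and 0 lower (median 2.11), with summed levels of 1370 CPM (SHR) and 174 CPM (WKY) in batch 2, against 397 and 551 CPM in SHR and 679 and 340 CPM in WKY of batch 1. Endothelial (4 tested) and macrophage (2 tested) markers had 0 calls. The part of these markers in the fall of the cell cycle genes was not tested.

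Between strains, edgeR called no member, and most members had small positive values in SHR over WKY. The fitted log2 fold change of SHR over WKY was positive in 22 of 22 mitotic members (0.18 to 0.81, median 0.42) and in 13 of 17 replication members (-0.88 to 0.82, median 0.18). It was positive in 47.4% of all genes tested, with a median of -0.02. By edgeR, 0 of 40 members passed an adjusted p below 0.05, where 0.254% of all genes did (0.103% higher and 0.151% lower), and the smallest adjusted p was 0.163 (Birc5). At an unadjusted p below 0.05, 15 mitotic members were higher and 0 lower, while 2 replication members were higher and 1 lower. Of all genes, 6.1% were higher and 7.18% lower at that level. The DESeq2 Wald test called 5 members higher (Birc5, Kif20a, Ccnb2, Kif22 and Rrm1; 2.68% of 13995 genes) and Tyms lower (2.46%). The adjusted p of each of these 6 reached 1.0 in edgeR without the batch term, the highest over the alternatives. That fit counts the fall of these genes in batch 2 as scatter within each strain, so it cannot judge these calls. The difference between the 2 classes was not tested, and the further replication and mitotic genes described below had medians close to each other (0.27 and 0.31). Members share the same libraries, so these counts are over genes and add no replicates.

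In batch 1, both SHR libraries lay above both WKY libraries in 22 of 22 mitotic members and in 4 of 17 replication members (Mcm2, Mcm6, Asf1b and Rrm1), as in 22.2% of all genes. They lay below in Tyms alone of the 40 members, as in 21.2% of all genes. In the other 12 replication members the strains overlapped. In batch 2 the SHR library was above the WKY library in 19 of 22 mitotic and 11 of 17 replication members, as in 47.1% of all genes. The 3 mitotic members that were not above were Foxm1, Aurka and Mki67, with ratios of 0.961 to 0.995. In both batches at once SHR was above WKY in 19 of 22 mitotic and 3 of 17 replication members, as in 13.5% of all genes, and below in 1 member, as in 14.4%. When the batches are ignored the strains overlapped in all 40 genes, while 4.51% of all genes had every SHR library above every WKY library and 5.3% had every one below. In the 40 genes every batch 2 library lay below every batch 1 library.

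**Figure D4:**
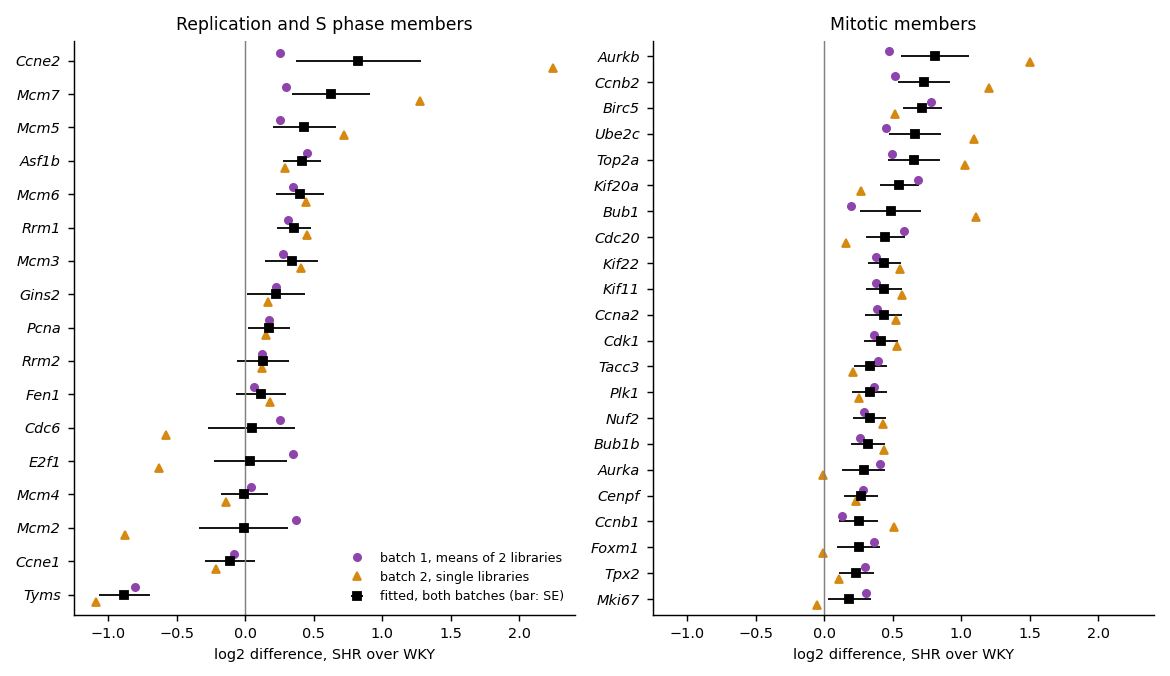
Log2 difference of SHR over WKY for each replication member (left) and mitotic member (right), as fitted over both batches with its SE (squares), in batch 1 (circles) and between the single libraries of batch 2 (triangles). The mitotic squares and circles all lie above 0, and the replication values straddle it, from -0.88 (Tyms) to 0.82 (Ccne2) as fitted.

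Mitotic genes are taken by role, beginning with the kinases and passenger genes. Birc5 had 43.2 and 49.7 CPM in SHR and 25.9 and 27.9 CPM in WKY of batch 1, and 3.43 CPM in SHR and 2.36 CPM in WKY of batch 2. The strains did not overlap in batch 1, and in batch 2 SHR was 1.45 times WKY, from 66 counts in SHR and 38 in WKY, with a 95% interval that included 1 (0.959 to 2.22, counting error alone). The log2 fold change was 0.72 (SE 0.14, edgeR adjusted p = 0.163; DESeq2 adjusted p = 0.0056). Aurkb, the kinase that survivin serves, had 81.4 and 104 CPM in SHR and 64.4 and 68.1 CPM in WKY of batch 1, and 25.2 CPM in SHR and 8.83 CPM in WKY of batch 2. Its log2 fold change was 0.81 (SE 0.25, edgeR adjusted p = 0.282), the largest among the 22, and the single libraries of batch 2 had a 2.85-fold ratio (95% interval 2.36 to 3.46, from counting error alone). Plk1 and Aurka, kinases of spindle assembly, were at 0.33 and 0.29, with adjusted p of 0.362 and 0.495 by edgeR.

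Among cyclins, Ccnb2 (cyclin B2) had 71.0 and 58.6 CPM in SHR and 42.7 and 47.7 CPM in WKY of batch 1, and 10.7 CPM in SHR and 4.60 CPM in WKY of batch 2 (log2 fold change 0.73, SE 0.19, edgeR adjusted p = 0.241; DESeq2 adjusted p = 0.033). This value is uncertain, because the table also holds LOC100364016, which current RefSeq names Ccnb2-ps2 and classes as a pseudogene, with more counts than Ccnb2 in every library. Counts of both added together gave 167, 141 and 21.6 CPM in SHR replicates 1 to 3, against 100.4, 113 and 12.9 CPM in WKY replicates 1 to 3. The log2 fold change of the sum was 0.60 (SE 0.14, edgeR adjusted p = 0.212, DESeq2 adjusted p = 0.00575). The other cyclin genes had log2 fold changes of 0.43 (Ccna2) and 0.25 (Ccnb1), and their kinase gene Cdk1 0.42.

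The 5 spindle and motor genes had log2 fold changes from 0.24 (Tpx2) to 0.55 (Kif20a). Kif20a, a kinesin of cytokinesis, had 162 and 168 CPM in SHR and 99.97 and 106 CPM in WKY of batch 1, and 28.3 CPM in SHR and 23.5 CPM in WKY of batch 2 (log2 fold change 0.55, SE 0.14, edgeR adjusted p = 0.237; DESeq2 adjusted p = 0.0161). Kif22, a kinesin that binds chromosome arms, had 108 and 121 CPM in SHR and 88.6 and 86.5 CPM in WKY of batch 1, and 10.2 CPM in SHR and 6.90 CPM in WKY of batch 2 (0.44, SE 0.12, edgeR adjusted p = 0.258; DESeq2 adjusted p = 0.0459). Kif11, which pushes spindle poles apart, was at 0.43, Tacc3 at 0.34 and Tpx2, the activator of Aurora A, at 0.24. In each of these 5 genes SHR was above WKY in both batches.

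In the anaphase pair, Ube2c had 69.6 and 87.3 CPM in SHR and 54.0 and 60.1 CPM in WKY of batch 1, and 24.2 CPM in SHR and 11.3 CPM in WKY of batch 2 (log2 fold change 0.66, SE 0.19, edgeR adjusted p = 0.265). Cdc20, which activates the anaphase-promoting complex, was at 0.45. The 4 checkpoint and kinetochore genes lay between 0.27 (Cenpf) and 0.48 (Bub1). Bub1, a checkpoint kinase, had nearly touching libraries in batch 1, with 95.7 and 107 CPM in SHR and 95.1 and 81.8 CPM in WKY, while batch 2 had 16.8 CPM in SHR and 7.77 CPM in WKY. Top2a was at 0.66 (SE 0.19, edgeR adjusted p = 0.267) and Mki67 at 0.18 (SE 0.15, adjusted p = 0.647), the smallest of the 22.

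Lmnb1, the lamin B1 gene, which lies outside both classes, was higher in SHR in both batches by its library values given above, with a log2 fold change of 0.64 (SE 0.20, edgeR adjusted p = 0.291).

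Of the 17 replication genes, 13 had positive and 4 negative values (Tyms, Ccne1, Mcm2 and Mcm4). Tyms was the member in which every SHR library stood below every WKY library of its batch, by its values given above (log2 fold change -0.88, SE 0.19, edgeR adjusted p = 0.185, DESeq2 adjusted p = 0.00995). The strains did not overlap in batch 1, and in batch 2 SHR was 0.469 times WKY (95% interval 0.403 to 0.545, counting error alone). The other nucleotide supply genes did not share this. Rrm1 had 267 and 274 CPM in SHR and 211 and 225 CPM in WKY of batch 1, and 44.9 CPM in SHR and 32.7 CPM in WKY of batch 2 (0.36, SE 0.13, edgeR adjusted p = 0.336; DESeq2 adjusted p = 0.0328). Rrm2 was at 0.13 (SE 0.19) and its libraries overlapped in batch 1. Asf1b, with the values given above, was at 0.41 (SE 0.14, edgeR adjusted p = 0.310), while the sliding clamp gene Pcna and Fen1 were at 0.18 and 0.12.

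The MCM genes, whose proteins form a single ring, had fitted values from -0.01 to 0.63, and differences between them were not tested. In batch 1 the log2 difference of SHR over WKY was positive in each, from 0.04 (Mcm4) to 0.37 (Mcm2). Between the single libraries of batch 2 it ran from -0.88 (Mcm2) to 1.27 (Mcm7). Mcm6 had 113 and 168 CPM in SHR and 109 and 107 CPM in WKY of batch 1, and 18.7 CPM in SHR and 13.7 CPM in WKY of batch 2 (log2 fold change 0.40, SE 0.18, edgeR adjusted p = 0.413). Mcm7 had 83.3 and 129 CPM in SHR and 96.1 and 73.7 CPM in WKY of batch 1, and 26.9 CPM in SHR and 11.1 CPM in WKY of batch 2 (0.63, SE 0.29, edgeR adjusted p = 0.427). Its strains overlapped in batch 1 and stood 2.43-fold apart in batch 2 (95% interval 2.05 to 2.90, counting error alone). Mcm2 went opposite ways in the batches, with 114 and 181 CPM in SHR and 113 and 109 CPM in WKY of batch 1, and 27.1 CPM in SHR and 49.9 CPM in WKY of batch 2. Its fitted value was -0.01 (SE 0.33). The values of Mcm5, Mcm3 and Mcm4 were 0.43, 0.34 and -0.0049, and those of Gins2, a helicase cofactor, and Cdc6, the licensing factor, 0.22 and 0.05.

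At S phase entry, Ccne2 (cyclin E2) had 19.6 and 29.7 CPM in SHR and 22.1 and 18.5 CPM in WKY of batch 1, which overlapped, and 4.52 CPM in SHR and 0.871 CPM in WKY of batch 2. The batch 2 ratio of 5.19 rested on 87 counts in SHR and 14 in WKY (95% interval 2.93 to 9.89, counting error alone), and the fitted log2 fold change was 0.82 (SE 0.46, edgeR adjusted p = 0.503). Ccne1 and E2f1 were at -0.11 and 0.04. In batch 2, 4 replication members had a counting interval wholly below 1 (Tyms, Mcm2, E2f1 and Cdc6), 6 wholly above 1, and 7 that included 1. For mitotic members 13 were wholly above 1, 0 below and 9 included 1. Of all genes tested, 31% had an interval wholly above 1 and 38% wholly below, so such intervals were common between these 2 libraries.

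Whether the strain difference itself differed between batches was tested with an interaction term. Batch 2 had 1 library per strain, so all of the spread in this fit, with 2 residual degrees of freedom, came from the replicates of batch 1, and the batch 2 libraries were assumed to vary like them. By edgeR 0 of 40 members and 0% of all genes passed an adjusted p below 0.05. At an unadjusted p below 0.05, 3 members had a positive interaction, SHR over WKY being larger in batch 2 (Ccne2, Aurkb and Bub1; 5.44% of all genes), and Mcm2 a negative one (7.22%), with SHR below WKY in batch 2. DESeq2 called 0 members, and 3.38% of all genes. For Ccne2 the interaction was 2.09 on the log2 scale (SE 0.53, edgeR adjusted p = 0.265), for Aurkb 1.02 (SE 0.31, adjusted p = 0.316), for Bub1 0.92 (SE 0.28, adjusted p = 0.316) and for Mcm2 -1.29 (SE 0.43, adjusted p = 0.348).

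Averaged over each class, the strain difference of the mitotic genes exceeded the replicate differences of both strains, while that of the replication genes exceeded the replicate difference in WKY but not in SHR. The mean log2 CPM of the 22 mitotic members was 6.52, 6.66 and 3.65 in SHR replicates 1 to 3, and 6.20, 6.19 and 3.14 in WKY replicates 1 to 3. SHR exceeded WKY by 0.40 in batch 1 and 0.51 in batch 2, while replicate 2 minus replicate 1 was 0.14 in SHR and -0.013 in WKY. For the 17 replication members the means were 6.02, 6.54 and 3.46 in SHR and 6.15, 6.07 and 3.28 in WKY. Here SHR exceeded WKY by 0.17 in each batch, while replicate 2 minus replicate 1 was 0.53 in SHR and -0.083 in WKY. SHR replicate 2 was above SHR replicate 1 in 17 of 17 replication members (median difference 0.56) and in 19 of 22 mitotic members (median 0.16). WKY replicate 2 was above WKY replicate 1 in 4 of 17 and 13 of 22. Over all genes the median difference was -0.00026 in SHR and -0.0038 in WKY.

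The mitotic mean minus the replication mean was 0.50, 0.12 and 0.20 in SHR replicates 1 to 3, and 0.05, 0.12 and -0.14 in WKY replicates 1 to 3. All SHR values lay above all WKY values, but the lowest in SHR (0.1225, replicate 2) and the highest in WKY (0.1211, replicate 2) nearly touched. The difference between strains was 0.26, against a residual SD of 0.16, and became 0.16 when SHR replicate 1 was left out and 0.38 when SHR replicate 2 was. The batches differed by -0.17, about that SD. No test was made of these averages, since the genes in them were chosen with results of these data known.

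**Figure D5:**
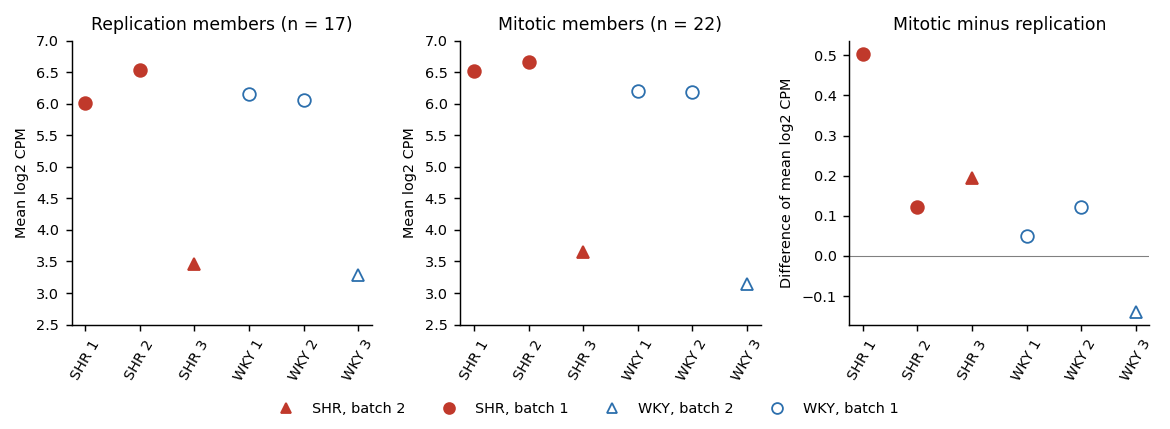
Mean log2 CPM of the replication members, of the mitotic members, and the difference of these means, in each library, SHR filled and left of WKY, batch 2 as triangles and batch 1 as circles. For mitotic members both batch 1 SHR circles lie above both WKY circles, and for replication members SHR replicate 1 (6.02) lies below both WKY circles.

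The counts at an unadjusted p below 0.05 changed when single libraries were left out, in fits that also had fewer residual degrees of freedom. The 15 mitotic members became 5 without SHR replicate 2, 8 without WKY replicate 2, 9 without WKY replicate 1 or WKY replicate 3, 10 without SHR replicate 3 and 13 when SHR replicate 1 was dropped, while all 22 kept a positive sign in each of these fits. Without the batch term the count was 0, and the fall in batch 2 then counts as scatter within each strain. With the replicate block the count was 11. Over all genes, 769 of 12614 were higher at that level in the main fit, and 559 to 932 in the fits without 1 library. Without the batch term 287 of all genes were higher, and with the replicate block 573. The replication median of 0.18 became 0.03 without SHR replicate 2, 0.11 without WKY replicate 2 and 0.29 when SHR replicate 1 was left out. Leaving out replicate 3 of SHR or of WKY gave 0.30. In both of these fits the batch term takes up the remaining batch 2 library. The strain value then rests on the batch 1 libraries, and the fit of batch 1 alone also gave 0.30. Of 8 fibroblast markers, 8 had positive log2 fold changes between strains (median 1.79) and 1 was called by edgeR. Of all genes tested, 47.4% were positive and 0.254% were called. The part of these markers in the strain values of the cell cycle genes was not tested.

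Genes outside the 40 stood as follows between strains. Of 40 further replication genes, 0 were called by edgeR and 1 by DESeq2. A nominal edgeR p under 0.05 was reached by 12 with SHR higher and 0 with SHR lower, and 36 had positive values (median 0.27). Of all genes tested, 6.1% were higher and 7.18% lower at that level, and 47.4% had positive values. DESeq2 called 2.68% of 13995 genes higher and 2.46% lower, and edgeR called 0.254% of all genes. Rpa2, a subunit of the single-strand binding protein, had 52.5, 57.6 and 8.78 CPM in SHR replicates 1 to 3 and 34.8, 36.7 and 6.09 CPM in WKY replicates 1 to 3 (0.59, SE 0.12, edgeR adjusted p = 0.168; DESeq2 adjusted p = 0.00442). Lig1, the DNA ligase of the lagging strand, was at 0.42 and Cdc45, a helicase cofactor, at 0.63.

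Of 46 further mitotic genes, 0 were called by edgeR and 5 higher by DESeq2 (2.68% of 13995 genes). A nominal edgeR p under 0.05 was reached by 11 with SHR higher (6.1% of all genes) and 0 with SHR lower (7.18%). Positive values were found in 43 (median 0.31), as in 47.4% of all genes. The spindle gene Ckap2l had the largest difference relative to its error, with 44.1, 48.9 and 7.23 CPM in SHR replicates 1 to 3 and 24.7, 23.6 and 3.67 CPM in WKY replicates 1 to 3. Its log2 fold change was 0.95 (SE 0.13, edgeR adjusted p = 0.0778; DESeq2 adjusted p = 1.19e-06). Nusap1, a microtubule-bundling protein of the spindle, was at 0.61 and Ncapd2, a condensin subunit, at 0.45.

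Regulators of G1 and of E2F had positive values in 14 of 24 (median 0.13). Of the 24, edgeR and DESeq2 called 0, and a nominal edgeR p under 0.05 was reached by 0 with SHR higher and 2 with SHR lower. Of all genes, 6.1% were higher and 7.18% lower at that level, and 47.4% had positive values. Ccnd1 (cyclin D1) had 908, 1293 and 330.0 CPM in SHR replicates 1 to 3 and 1606, 1856 and 1867 CPM in WKY replicates 1 to 3 (log2 fold change -1.25, SE 0.44, edgeR adjusted p = 0.342). Ccnd2 was at -0.88 and Cdk6, a kinase partner of the D cyclins, at -0.65. Among CDK inhibitors, Cdkn2c had 62.5, 53.9 and 19.6 CPM in SHR and 27.0, 35.3 and 6.72 CPM in WKY (1.10, SE 0.20, edgeR adjusted p = 0.140; DESeq2 adjusted p = 0.000401). Cdkn1c was at 2.95 and Cdkn2b at -0.97, and of the 6 inhibitor genes in the table edgeR called 0 and DESeq2 2 higher and 2 lower. Over 13995 genes DESeq2 called 2.68% higher and 2.46% lower.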

How the data were processed

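RNA of cultured aortic cells from 3 SHR and 3 WKY libraries was sequenced on a DNBSEQ instrument with paired-end reads, per the labels' protocols. The authors deposited estimated counts per gene, not normalized, and a second table of log2 values. The submitters' processing notes list, without roles, the build Rnor_6.0 and the tools RSEM 1.2.28, Bowtie2 2.4.4 and DESeq2 1.42.1. How strand was handled in counting is not stated there. Of the deposited estimated counts 8.96% were not whole (tolerance 0.001), among them those of Cdc6, Gins2 and Ccnb2, which may share reads with similar genes. In the deposited log2 values the batch means were equal in every gene (largest difference 7.5e-09), so they served as an alternative for the strain comparison alone.

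Counts were rounded. Of 16770 genes, 12614 passed filterByExpr by strain. The fit of edgeR 4.0.16 (R 4.3.3) held a term for strain and a term for batch after TMM scaling, which left 3 residual degrees of freedom, and its quasi-likelihood F-test gave both comparisons. P-values are two-sided and Benjamini-Hochberg adjusted over the 12614 genes, with calls made below 0.05. Log2 fold changes are SHR over WKY or batch 2 over batch 1. Standard errors came from the fold change and F. Class levels are means of log2 CPM with a prior count of 2. Alternatives were DESeq2 1.42.0, limma 3.58.1 on the deposited log2 values, other scaling, filter and terms, and leaving out each library; adding the counts of the Ccnb2 copy was chosen after seeing the data. The code was tested on simulated data. Intervals of single-library ratios are exact binomial at 95% and cover counting error only, as no molecular identifiers are named.

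The members, lists and rules were chosen with earlier results of these data known. The 5 members of each class with the smallest strain p, the extremes of the batch change, Lmnb1, members called by DESeq2 and the 3 with the smallest interaction p are given with values, and 3 genes of each further list. Deviations from the strain means correlated at 0.303, 0.400 and 0.655 between same-numbered libraries, and at 0.484 and 0.493 between replicates 1 and 2 crossed, so the numbers follow the batch, which the labels give. RefSeq promoters were matched by symbol and read on the strand of the gene. Protein motifs were not analysed here.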

Additional observations from a re-analysis of the deposited data

How the results depend on the processing

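The 40 of 40 genes lower in batch 2 were also called in every alternative that fits batch, with medians without 1 library of -3.04 to -2.82 (replication) and -3.29 to -3.18 (mitotic). Between strains the count of called members was 0 under the edgeR alternatives and 6 with DESeq2 (5 higher, 1 lower). With the replicate block in place of batch it was 0, with medians of 0.17 (replication) and 0.42 (mitotic), and it changed no call among the 40. The adjusted p of the 6 genes called by DESeq2 reached 1.0 in all 6 without the batch term. In that fit their fall in batch 2 counts as scatter within each strain, so it cannot judge these calls. With the deposited log2 values both medians were smaller than in the main fit, at 0.26 (mitotic) and 0.12 (replication), and the cause was not tested. Without 1 library the mitotic median lay between 0.36 and 0.47 and the replication median between 0.03 and 0.30. The strain difference of mitotic minus replication means then lay between 0.16 and 0.38, and its batch difference between -0.26 and -0.10. Mcm2 turned positive between strains with DESeq2 (0.0062), RLE scaling (0.0093), no batch term (0.24) and batch 1 alone (0.40), and lay between -0.34 and 0.41 without 1 library. Rrm2 lay between -0.0060 and 0.26 and Fen1 between -0.051 and 0.29, negative without SHR replicate 2. Scaling moved the median of all genes by less than 0.1 in each fit. Relative counting error is larger for the 40 genes in batch 2, where their counts ran from 14 to 863. Total counts in batch 2 were 19947286 in SHR, the highest of the 6 libraries, and 18462032 in WKY, the lowest. The TMM factor of that WKY library was also the lowest, at 0.873.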
